A study of Mus musculus with 3 samples.

Results

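Integrins are the receptors by which cells hold on to extracellular matrix, and each is a pair of an alpha and a beta chain. The alpha chain largely sets which ligand is bound: laminin, collagen, or proteins that carry an arginine-glycine-aspartate (RGD) motif, such as fibronectin and vitronectin. Talin and kindlin bind the tail of the beta chain and switch the receptor on, and vinculin, the integrin-linked kinase complex, focal adhesion kinase, paxillin and the tensins connect it to actin and to signalling. In epidermis, integrins on the basal cell surface anchor cells to the basement membrane, and those with Itgb1 or Itgav also join cultured cells to matrix at focal adhesions.

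The 46 genes described here, of 24421 in the count table, are all symbols that begin with Itga or Itgb and a digit, 5 further alpha-chain genes (Itgal, Itgam, Itgav, Itgax and Itgae) and 17 named focal adhesion genes. They comprise 17 alpha chains, 9 beta chains, 17 adaptors and kinases, and 3 genes that carry the prefix without being receptor chains: Itgb1bp1, which encodes a protein that binds the Itgb1 tail, Itgb1bp2, a chaperone-related protein of striated muscle, and Itgb3bp, a centromere protein. Mouse JB6 P+ cells, an epidermal line in which tumour promoters induce transformation, were sequenced as 3 RNA libraries, 1 per group. The CDDO+TPA group received the phorbol ester TPA at 10 ng/mL with 50 nM CDDO, a synthetic oleanane triterpenoid; the TPA group received TPA alone at the same dose; the control group is labelled only as control. Treated cells were dosed every second day for 5 days while kept in 1% serum; no source used here says whether the control shared the medium, the time or a vehicle. The count column taken as CDDO+TPA names CDDO without TPA and was matched to the only sample whose labels name CDDO.

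The CDDO+TPA, TPA and control libraries comprised 7872089, 7813035 and 8190078 gene-assigned reads, of which the 46 genes took 0.531% in the CDDO+TPA library, 0.506% in the TPA library and 0.507% in the control library. CPM is the read count of a gene relative to the scaled library total, and TPM also divides by exonic length, so that different genes are compared within a library. With 1 library per group there is no test against the spread between cultures; every interval below covers counting error only, and reads without molecular identifiers are not independent molecules. Genes are called higher or lower past a size rule that asks for a log2 fold change, with a prior count of 2 added, of 1 or more in either direction, and for a 95% counting interval of the fold that leaves out 1. In bulk RNA, fewer cells of a type and less RNA per cell cannot be told apart. The label of skin epithelial cells was set against marker genes. Of 11 keratinocyte markers, 2 reached 1 CPM (Krt10 and Sfn), and Krt5, Krt1 and Epcam had 0 reads in every library, with summed levels of 11.8, 19.3 and 17.5 CPM in the CDDO+TPA, TPA and control libraries. By contrast 8 of 9 fibroblast markers reached it, with summed levels of 1054, 901 and 1525 CPM in the CDDO+TPA, TPA and control libraries. The fibroblast markers differed in direction: in that order of libraries Col1a1 had 267, 152 and 529 CPM, and Pdgfra had 76.9, 34.9 and 5.24 CPM.

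Of the 46 genes, 32 reached 1 CPM in at least 1 library and were compared. The other 14 had at most 7 reads in any library: the collagen receptor chains Itga2 and Itga11, the RGD receptor chain Itga8, Itga4 and Itga9, the leukocyte chains Itgal, Itgam and Itgax, the beta chains Itgb3, Itgb6, Itgb8 and Itgb2l, the epithelial kindlin gene Fermt1, and Itgb1bp2. Itga8, Itgb2l and Fermt1 had 0 reads in every library, which allows up to 0.380 CPM in the CDDO+TPA library, 0.377 CPM in the TPA library and 0.374 CPM in the control library at a floor of 3 reads. Itgae reached 1 CPM in the CDDO+TPA library alone, so its passing the filter rests on the library in which it is high.

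Past the size rule in at least 1 comparison were 9 of the 32 genes (28.1%, against 25.9% of all 13100 measured genes). They were 8 of the 14 measured receptor chains (Itga1, Itga7, Itga2b, Itgae, Itgb2, Itgb4, Itgb5 and Itgb7) and 1 of the 16 measured adaptors, the kindlin gene Fermt3. All of these but Itgb5 and Itgb7 had at most 28.9 CPM in any library, whereas the other 15 adaptors had at least 71.9 CPM. Role and level were not separated. The other 23, among them the most abundant alpha chains, Itgb1 and 15 of the 16 measured adaptors, were past it in none.

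**Figure D1:**
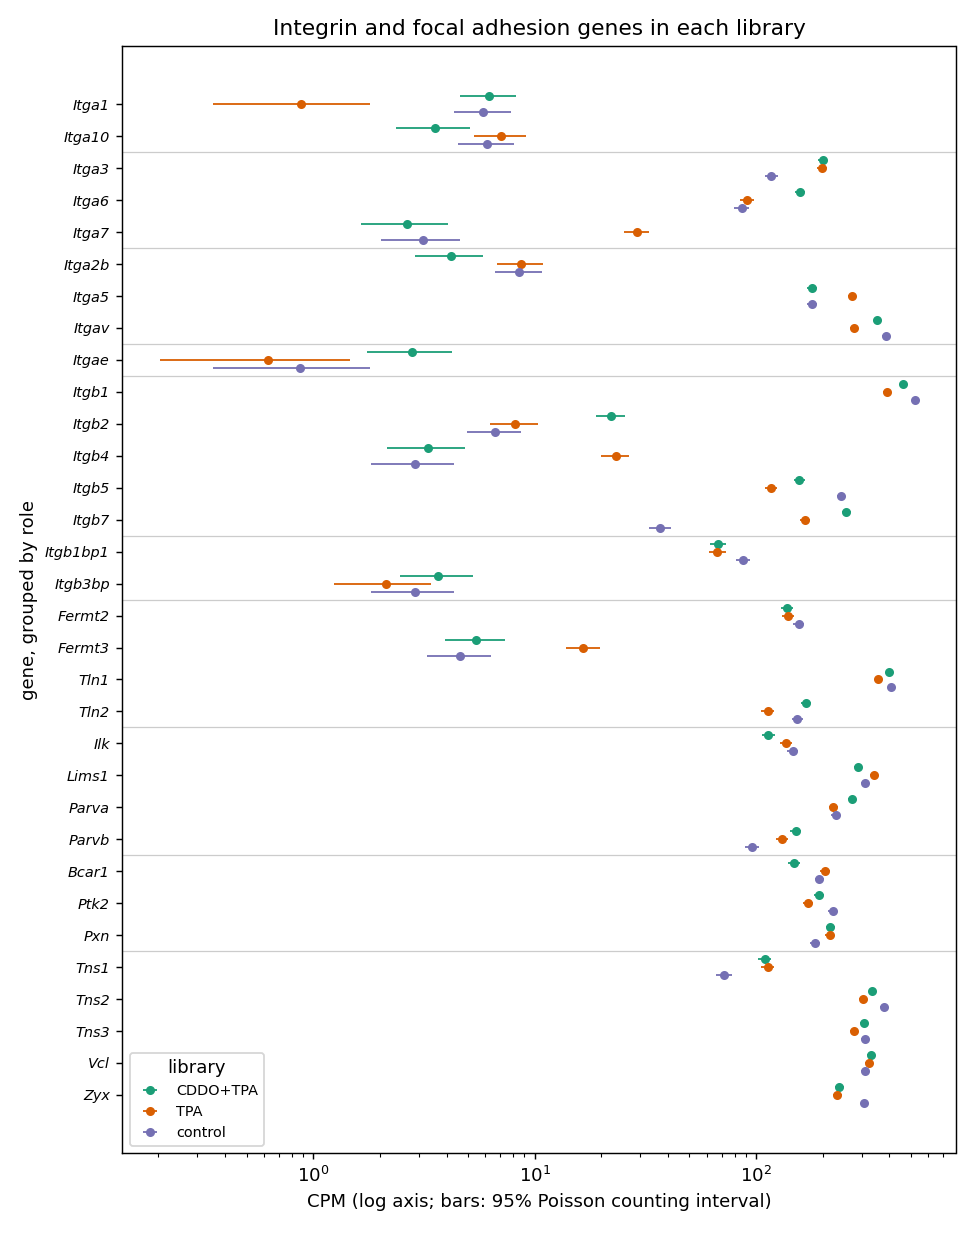
Level of each of the 32 measured genes in CPM (log axis), grouped by role, in the CDDO+TPA, TPA and control libraries; bars are 95% Poisson counting intervals. The adaptors other than Fermt3 lie between 71.9 and 408 CPM in every library, while Itga7, Itgb4 and Fermt3 stand apart in the TPA library and Itgb7 in the control library.

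In TPA against control, 4 of the 32 genes were higher past the size rule (12.5%, against 9.57% of all 13100 measured genes) and 2 were lower (6.25%, against 5.91% of all). Any difference of the control in medium, time or vehicle also enters this comparison and cannot be told apart from TPA. Itga7, Itgb4, Itgb7 and Fermt3 were the higher genes, and Itga1 and Itgb5 the lower ones. The median log2 fold change was -0.01 over the 32 genes and 0.00 over all genes. At a fold of at least 1.5, 7 were higher (21.9%, against 15.5% of all) and 2 lower (6.25%, against 13.7% of all), the added genes being Itga3, Itga5 and Tns1.

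In the comparison of CDDO+TPA with TPA, which asks what the triterpenoid added, 3 of the 32 were higher (9.38%, against 7.87% of all) and 4 lower (12.5%, against 7.78% of all). Itga1, Itgae and Itgb2 were higher, and Itga7, Itgb4, Fermt3 and Itga2b were lower. Itgae is included in the higher genes here and against control, although it passed the filter only through the CDDO+TPA library. The median was 0.08 over the 32 genes and 0.01 over all genes. At a fold of at least 1.5, 5 were higher (15.6%, against 15.3% of all) and 6 lower (18.8%, against 12.8% of all). Against control, 3 of the 32 were higher in the CDDO+TPA library (9.38%, against 8.02% of all), namely Itgb7, Itgb2 and Itgae, and 0 were lower (3.37% of all genes were). At a fold of at least 1.5 there were 7 higher (21.9%, against 13.4% of all) and 3 lower (9.38%, against 8.7% of all). The median against control was -0.01 over the 32 genes and -0.02 over all genes. The 3 comparisons share libraries, so their values are not independent of each other.

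**Figure D2:**
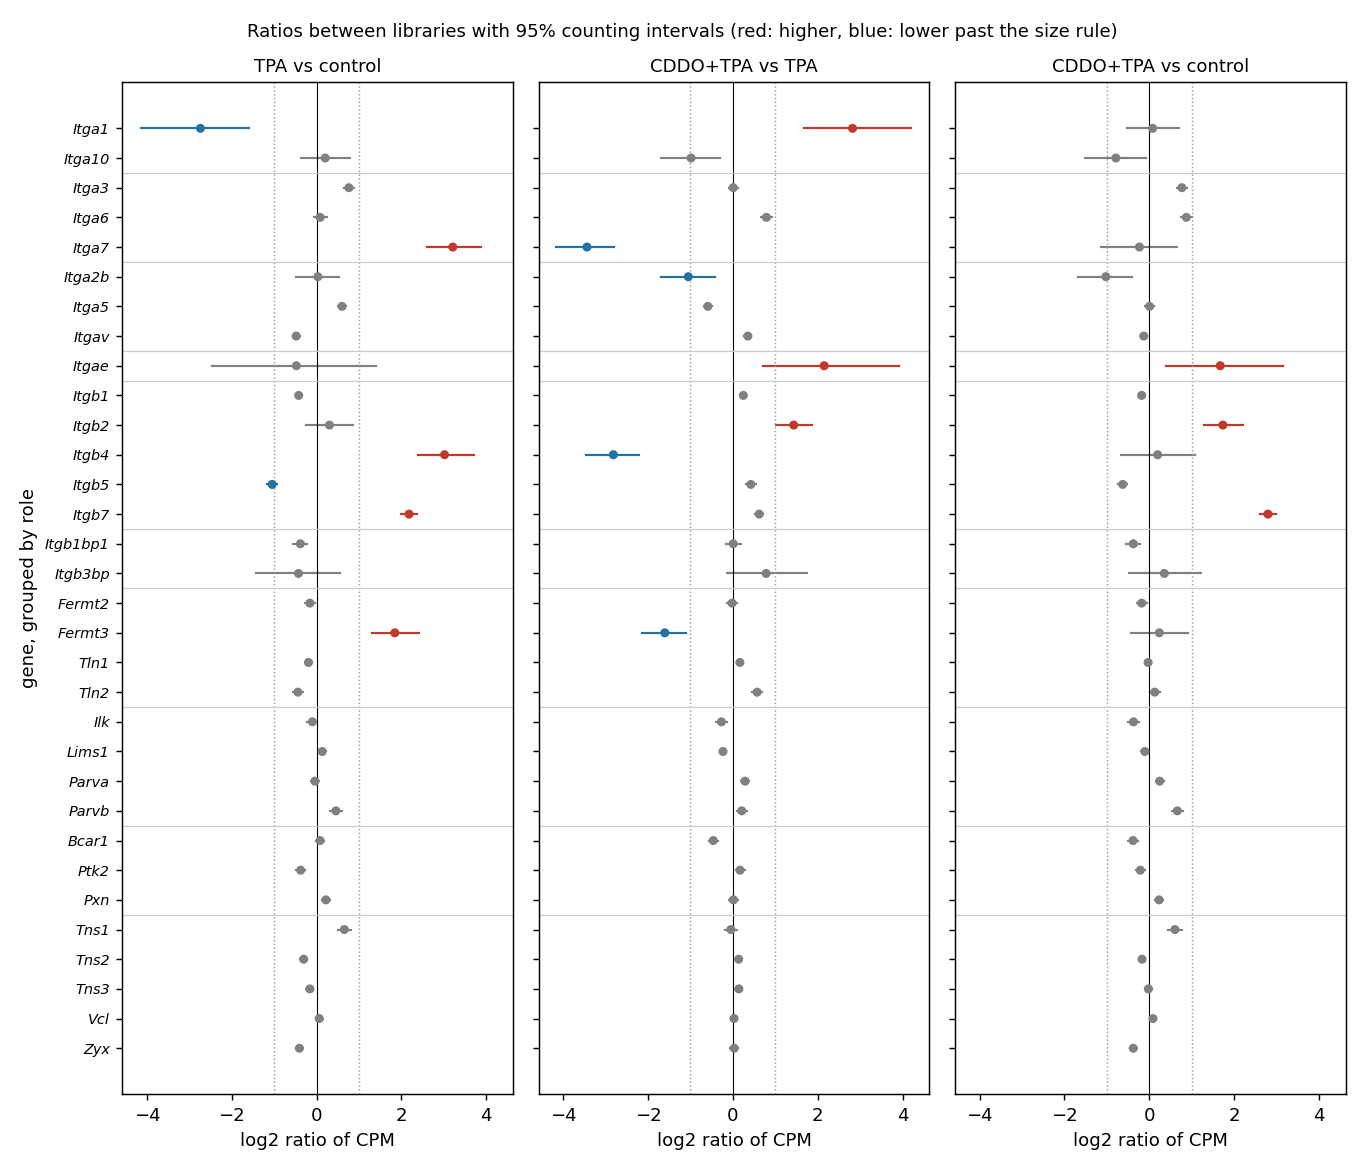
Log2 ratio of CPM for each of the 32 measured genes in TPA against control, CDDO+TPA against TPA and CDDO+TPA against control; lines are 95% counting intervals, dotted lines mark a 2-fold ratio, and red and blue mark genes higher and lower past the size rule. Itga7 and Itgb4 have the highest ratios when TPA is set against control and the lowest when CDDO+TPA is set against TPA, and Itga1 has the lowest and the highest.

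Among laminin receptor chains, the gene with the largest difference was Itga7, which pairs with Itgb1 and is best known from skeletal muscle (mm10 chr10:128933813-128958284, plus strand). Itga7 had 21 reads in the CDDO+TPA library, 230 in the TPA library and 25 in the control library, or 2.66, 28.9 and 3.12 CPM. It was high in the TPA library alone: 9.25-fold higher than in control (95% counting interval 6.11 to 14.6), and 10.9-fold lower in CDDO+TPA than in TPA (6.93 to 17.9). CDDO+TPA and control were within counting error of each other for this gene (fold 0.853, 0.454 to 1.59). Of 5 skeletal muscle markers, Myod1, Myog and Ckm had 0 reads in every library and Myh3 at most 3, and Des had 47.5, 23.5 and 20.8 CPM in the CDDO+TPA, TPA and control libraries.

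Itgb4 encodes the long-tailed beta chain that pairs with Itga6 in hemidesmosomes, the junctions that tie keratin filaments to the basement membrane (mm10 chr11:115974725-116008411, plus strand). It had 26, 185 and 23 reads, or 3.29 CPM in the CDDO+TPA library, 23.2 CPM in the TPA library and 2.87 CPM in the control library. As with Itga7, the TPA library was high and the other two did not differ beyond counting error (CDDO+TPA against control 1.15-fold, 0.630 to 2.11). The folds were 8.09 higher (5.23 to 13.1) in TPA against control and 7.05 lower (4.66 to 11.1) in CDDO+TPA against TPA. Its partner Itga6 did not follow it. Itga6 had 158 CPM in the CDDO+TPA library, 91.4 CPM in the TPA library and 86.2 CPM in the control library. It was 1.73-fold higher (1.58 to 1.90) in CDDO+TPA than in TPA and 1.83-fold higher (1.67 to 2.01) than in control, short of the size rule. Per length, Itgb4 amounted to 0.0203 of Itga6 in the CDDO+TPA library (0.0132 to 0.0299), 0.248 in the TPA library (0.210 to 0.292) and 0.0325 in control (0.0204 to 0.0491). In every library, then, the Itga6 transcript exceeded that of the hemidesmosome chain.

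Itga3, the other main laminin receptor chain, which pairs with Itgb1, had 200 CPM in the CDDO+TPA library, 199 CPM in the TPA library and 117 CPM in the control library. Both treated libraries were above control to about the same extent, 1.71-fold (1.57 to 1.85) for CDDO+TPA and 1.70-fold (1.56 to 1.84) for TPA. Laminin receptor chains made up 40.6% of alpha-chain TPM in the CDDO+TPA library (39.4% to 41.7%), 36.2% in the TPA library (35.1% to 37.4%) and 27.1% in control (25.9% to 28.2%).

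Collagen receptor chains were scarce. Itga1 (mm10 chr13:114958081-115101964, minus strand), the most abundant of them in the CDDO+TPA library, had 49 reads there, 7 in the TPA library and 47 in the control library, or 6.21, 0.879 and 5.87 CPM. The TPA library was low and the other two alike in counts: Itga1 was 6.67-fold lower in TPA than in control (3.00 to 17.5) and 7.06-fold higher in CDDO+TPA than in TPA (3.18 to 18.5). CDDO+TPA against control gave a fold of 1.06 (0.695 to 1.61). Itga10, a collagen receptor chain known from cartilage, had 28, 56 and 49 reads in the CDDO+TPA, TPA and control libraries and was past the rule in none of the comparisons. The class held 1.12% of alpha-chain TPM in the CDDO+TPA library, 0.993% in the TPA library and 1.68% in the control library.

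RGD receptor chains formed the largest class in each library. They held 57.8% of alpha-chain TPM in the CDDO+TPA library (56.6% to 58.9%), 62.5% in the TPA library (61.3% to 63.6%) and 71.0% in the control library (69.9% to 72.2%). Within the class, Itgav and Itga5, the main chain of the fibronectin receptor, differed in order between libraries. Per length, Itgav stood at 1.22 times Itga5 in the CDDO+TPA library (1.14 to 1.30), 0.632 times in the TPA library (0.595 to 0.671) and 1.34 times in the control library (1.25 to 1.42). Itga5 had 180 CPM in the CDDO+TPA library, 271 CPM in the TPA library and 179 CPM in the control library. Only the TPA library was high: 1.51-fold above control (1.42 to 1.62), with CDDO+TPA against control at 1.01-fold (0.934 to 1.08). Itgav had 353 CPM in the CDDO+TPA library, 276 CPM in the TPA library and 386 CPM in the control library, which put TPA lowest, 1.40-fold below control (1.32 to 1.48). None of these differences reached the size rule. Itga2b, the platelet fibrinogen receptor chain, had 33, 69 and 68 reads in the CDDO+TPA, TPA and control libraries. It was 2.07-fold lower in CDDO+TPA than in TPA (1.35 to 3.24), just past the rule at a log2 fold change of -1.01, and just short of it against control at -0.98. Its partner Itgb3 had 2, 3 and 0 reads, and of 4 platelet markers 2 reached 1 CPM, Pf4 had 0 reads in every library, and the list summed to 4.81, 6.15 and 3.49 CPM in the CDDO+TPA, TPA and control libraries.

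**Figure D3:**
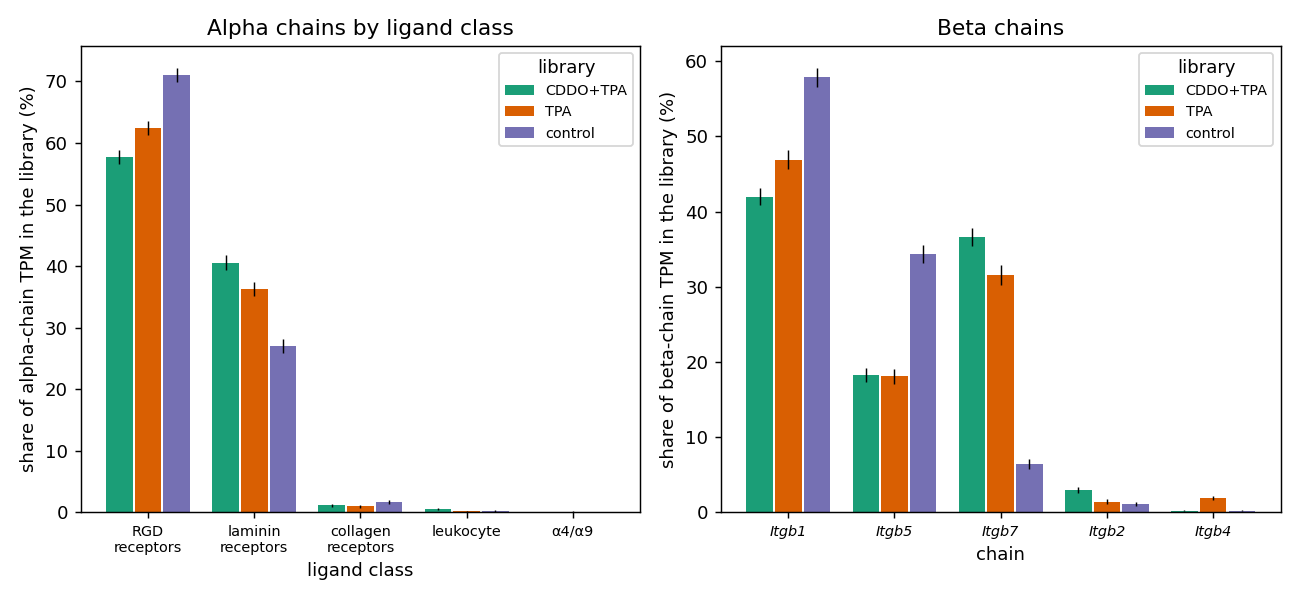
Share of alpha-chain TPM by ligand class (left) and share of beta-chain TPM by chain (right) in the CDDO+TPA, TPA and control libraries; bars are shares in percent and black lines are 95% counting intervals by the delta method. Itgb7 takes 36.6%, 31.6% and 6.41% of beta-chain TPM in the CDDO+TPA, TPA and control libraries, and laminin receptor chains take 40.6%, 36.2% and 27.1% of alpha-chain TPM.

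The beta chains also differed in composition between libraries, with shares taken by single gene, whereas those of alpha chains were pooled by ligand class. Itgb1, the common partner of most alpha chains, led in every library, with 461 CPM in CDDO+TPA, 389 CPM in TPA and 521 CPM in control, but its share of beta-chain TPM was 41.9% in the CDDO+TPA library, 46.9% in the TPA library and 57.8% in the control library. Itgb5, which pairs with Itgav to bind vitronectin, had 157 CPM in the CDDO+TPA library, 117 CPM in the TPA library and 242 CPM in the control library. It was lowest in TPA, 2.07-fold below control (1.91 to 2.24), close to the limit of the rule, and 1.34-fold higher in CDDO+TPA than in TPA (1.23 to 1.46). With library totals or upper-quartile scaling the log2 fold change of Itgb5 in TPA against control was -0.99 or -0.98, short of the rule. Its ratio to Itgav per length was 0.956 in CDDO+TPA (0.893 to 1.02), 0.911 in TPA (0.843 to 0.984) and 1.35 in control (1.27 to 1.43).

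Itgb7 reached the highest level of the genes past the rule. It encodes the beta chain of leukocyte integrins that home to gut and epithelium (mm10 chr15:102215995-102231935, minus strand), and had 2022 reads in the CDDO+TPA library, 1328 in the TPA library and 295 in the control library, or 256, 167 and 36.8 CPM. Both treated libraries were high, CDDO+TPA the higher: 6.96-fold above control (6.16 to 7.89) for CDDO+TPA and 4.53-fold (3.99 to 5.16) for TPA. CDDO+TPA exceeded TPA 1.54-fold (1.43 to 1.65), short of the size rule. Per length, Itgb7 amounted to 0.872 of Itgb1 in the CDDO+TPA library (0.826 to 0.921), 0.673 in the TPA library (0.630 to 0.718) and 0.111 in the control library (0.0982 to 0.125). The alpha chains known to pair with Itgb7 were nearly undetected. Itga4 had 0, 1 and 0 reads in the CDDO+TPA, TPA and control libraries, and Itgae had 22, 5 and 7 reads. Itgae was 4.44-fold higher in CDDO+TPA than in TPA (1.64 to 15.0) and 3.19-fold higher than in control (1.32 to 8.84). Because Itgae passed the filter through the CDDO+TPA library alone, these folds are description only. Per length, Itgb7 stood 157 times above Itgae in the CDDO+TPA library (104 to 251), 454 times in the TPA library (194 to 1401) and 72.1 times in the control library (34.5 to 181). The exons of Itgb7 and Itgae share no base with another gene in the counting annotation.

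Itgb2, the common beta chain of leukocyte integrins (mm10 chr10:77530348-77565674, plus strand), had 174 reads in the CDDO+TPA library, 65 in the TPA library and 53 in the control library, or 22.0, 8.16 and 6.61 CPM. Here only the CDDO+TPA library was high, 2.70-fold above TPA (2.02 to 3.65) and 3.33-fold above control (2.44 to 4.62). TPA and control did not differ beyond counting error (1.23-fold, 0.845 to 1.81). Its alpha partners were at or near 0: Itgal had 1, 4 and 1 reads in the CDDO+TPA, TPA and control libraries, Itgam had 1, 2 and 2, and Itgax had 7, 1 and 1. Of 12 leukocyte markers, 3 reached 1 CPM (Lyz2, Coro1a and Cd74), and Ptprc, Cd3e and Tyrobp had 0 reads in every library. The summed level of the leukocyte list was 16.1 CPM in the CDDO+TPA library, 12.3 CPM in the TPA library and 30.8 CPM in the control library. Cd74 alone had 5.45, 6.78 and 23.6 CPM in the CDDO+TPA, TPA and control libraries. Lyz2 had 8.36, 2.01 and 6.12 CPM (66, 16 and 49 reads). Coro1a had 1.39, 2.64 and 0.998 CPM (11, 21 and 8 reads). The part of leukocytes in the Itgb7 and Itgb2 values was not tested. Of 8 endothelial markers, 2 reached 1 CPM (Vwf and Pecam1). Their list summed to 199 CPM in the CDDO+TPA library, 292 CPM in the TPA library and 50.8 CPM in the control library. Nearly all of it was Vwf, with 198, 290 and 49.9 CPM in that order of libraries. Pecam1 had 5, 13 and 2 reads, and each of the others had at most 3 reads in any library. The part of endothelial cells in the Itgb7 values was not tested. Cdh1, the epithelial cadherin bound by the Itgae and Itgb7 pair, had 4, 1 and 4 reads.

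Among the proteins that switch integrins on, the talin gene Tln1 had 400 CPM in the CDDO+TPA library, 357 CPM in the TPA library and 408 CPM in the control library, and the widely expressed kindlin gene Fermt2 had 138, 140 and 156 CPM. The kindlin gene of blood cells, Fermt3 (mm10 chr19:6998958-7019469, minus strand), was the exception. It had 43 reads in the CDDO+TPA library, 132 in the TPA library and 37 in the control library, or 5.45, 16.6 and 4.62 CPM, so that only the TPA library was high. The folds were 3.59 higher in TPA against control (2.48 to 5.32) and 3.04 lower in CDDO+TPA against TPA (2.14 to 4.40), with CDDO+TPA against control at 1.18 (0.743 to 1.88). Even in the TPA library Fermt3 stood at 19.1 TPM beside 128 TPM for Fermt2. Tln2, the second talin gene, had 168 CPM in the CDDO+TPA library, 113 CPM in the TPA library and 153 CPM in the control library, the lowest value being that of TPA.

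No strand option was given in counting. In the counting annotation, exons of 8 of the 46 genes share bases with a gene on the other strand. The shared part ran from 0.20% of the exonic bases of Itga7 (with Mettl7b) to 19.5% of those of Itgb1bp1 (with Asap2). For Itgb4 the overlap with Galk1 is 0.89% and for Fermt3 that with Trpt1 is 3.44%. Across the CDDO+TPA, TPA and control libraries, Galk1 had 45.7, 46.2 and 43.6 CPM and Trpt1 had 5.96, 6.15 and 5.49 CPM. Mettl7b had 10, 4 and 6 reads. The part of opposite-strand reads in the counts of these genes was not tested.

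Upstream sequence was read for these genes because TPA acts through protein kinase C on AP-1 factors and CDDO is known as an activator of NRF2, which binds antioxidant response elements. RefSeq starts on GRCm38.p6 were given for 34 of the 46 genes, 40 starts in all; Itga7 and Itgb4 were among those without one and were not searched. The 250 bases before each start were searched on both strands for the AP-1 elements TGACTCA and TGAGTCA, each the reverse complement of the other, and for the antioxidant element core TGACNNNGC. An AP-1 element was present before 2 of the 40 starts (5%, against 4.46% of 32851 starts of all genes), those of Zyx and Itgax. The antioxidant core was present before 5 (12.5%, against 10.2% of all), those of Fermt2, Itgb1, Lims1, Itga9 and Itgb6. The Itga9 start lies 104983 bases from the start of the gene as counted. Itga9 and Itgb6, like Itgax, did not reach 1 CPM in any library. The stretches of Itgb7 and Fermt3, both high in the TPA library, of Itga1, low in it, and of Zyx, the measured gene with an AP-1 match, are shown for comparison; capitals mark a match, and each runs 5′ to 3′ and ends at the base before the start.
Itgb7 (chr15:102231936-102232185, minus strand): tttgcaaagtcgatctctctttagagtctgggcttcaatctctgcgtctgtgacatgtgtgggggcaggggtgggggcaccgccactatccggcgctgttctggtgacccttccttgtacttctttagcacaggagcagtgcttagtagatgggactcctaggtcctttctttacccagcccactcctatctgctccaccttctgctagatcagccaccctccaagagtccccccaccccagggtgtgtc
Fermt3 (chr19:7019470-7019719, minus strand): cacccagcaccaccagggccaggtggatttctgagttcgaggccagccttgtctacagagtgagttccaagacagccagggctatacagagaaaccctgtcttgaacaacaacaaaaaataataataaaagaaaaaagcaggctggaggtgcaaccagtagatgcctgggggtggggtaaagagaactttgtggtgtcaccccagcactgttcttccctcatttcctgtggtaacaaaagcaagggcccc
Itga1 (chr13:115101965-115102214, minus strand): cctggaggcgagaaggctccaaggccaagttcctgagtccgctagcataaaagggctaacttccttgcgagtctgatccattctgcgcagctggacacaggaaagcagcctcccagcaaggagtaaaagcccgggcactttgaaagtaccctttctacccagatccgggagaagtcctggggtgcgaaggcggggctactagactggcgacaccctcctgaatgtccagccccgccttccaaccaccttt
Zyx (chr6:42349578-42349827, plus strand): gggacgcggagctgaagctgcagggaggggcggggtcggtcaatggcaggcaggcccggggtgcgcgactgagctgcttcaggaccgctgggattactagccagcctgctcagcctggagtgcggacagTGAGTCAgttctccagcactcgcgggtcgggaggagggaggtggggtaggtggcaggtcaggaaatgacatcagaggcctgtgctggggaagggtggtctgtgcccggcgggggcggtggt
None of the letters searched stood in the Itgb7, Fermt3 or Itga1 stretch. Zyx, a LIM protein of focal adhesions with an AP-1 element from base -121 to -115, had 238 CPM in the CDDO+TPA library, 233 CPM in the TPA library and 309 CPM in the control library, and was not past the size rule in any comparison.

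Of the 16 measured adaptors, 1 (Fermt3) was past the size rule in at least 1 comparison, where 25.9% of all 13100 measured genes were. The other 15 are grouped here because they fell short of it, so their narrower range follows in part from that choice. Over these 15 genes the log2 fold change ran from -0.44 (Tln2) to 0.65 (Tns1) in TPA against control, from -0.46 (Bcar1) to 0.57 (Tln2) in CDDO+TPA against TPA and from -0.38 (Bcar1) to 0.66 (Parvb) in CDDO+TPA against control. At this depth the counting intervals of 11, 10 and 13 of the 15 folds excluded 1 in those 3 comparisons, but no spread between cultures was measured to set them against. The share of all measured genes with such an interval is not given here, so these counts do not set the adaptors apart. Their levels per length ran from 32.9 to 214 TPM in the CDDO+TPA library, from 27.7 to 217 TPM in the TPA library and from 21.1 to 235 TPM in the control library, with medians of 140, 149 and 142 TPM in that order of libraries.

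In the complex of integrin-linked kinase, the kinase-like gene Ilk had 114 CPM in the CDDO+TPA library, 137 CPM in the TPA library and 147 CPM in the control library. Lims1, which encodes the LIM protein PINCH1, had 290, 341 and 311 CPM. The actin-binding parvins differed in pattern: Parva was highest in CDDO+TPA (272, 223 and 229 CPM in the CDDO+TPA, TPA and control libraries), and Parvb was above control in both treated libraries (152, 131 and 95.7 CPM). In the counting annotation, exons of Ilk share 7.29% of their bases with Rrp8 and 1.70% with Taf10 on the other strand.

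Ptk2, which encodes focal adhesion kinase, had 193 CPM in the CDDO+TPA library, 171 CPM in the TPA library and 223 CPM in the control library. Paxillin (Pxn), its scaffold, had 217, 215 and 185 CPM, and Bcar1, the docking protein p130Cas, had 148 CPM in the CDDO+TPA library, 205 CPM in the TPA library and 193 CPM in the control library. Bcar1 was therefore lowest with CDDO, 1.38-fold below TPA (1.28 to 1.49). Vcl, which encodes vinculin, had 330 CPM in the CDDO+TPA library, 324 CPM in the TPA library and 311 CPM in the control library. The tensins, which bind beta-chain tails and actin, did not share a pattern: Tns1 was above control in both treated libraries (109, 113 and 71.9 CPM in the CDDO+TPA, TPA and control libraries), whereas Tns2 (335, 305 and 377 CPM) and Tns3 (306, 278 and 310 CPM) were lowest in TPA. Itgb1bp1 had 67.3, 66.9 and 87.2 CPM in the CDDO+TPA, TPA and control libraries, and Itgb3bp had 29, 17 and 23 reads.

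Other genes of the pathway were taken from 4 lists. Of 40 integrin ligands, 27 were measured, and in TPA against control 4 were higher (14.8%, against 9.57% of all genes) and 7 lower (25.9%, against 5.91% of all), leaving 16 short of the rule. The fibrillar collagen genes Col3a1, Col1a2 and Col1a1 were 4.65-fold (3.67 to 5.94), 3.50-fold (3.28 to 3.74) and 3.49-fold (3.27 to 3.72) lower with TPA, as was Vcam1, a ligand of Itga4-containing integrins, by 3.41-fold (2.89 to 4.03). Tnc, the matrix protein tenascin C, was 2.80-fold higher (2.24 to 3.53). In CDDO+TPA against TPA, 3 ligands were higher (11.1%, against 7.87% of all genes) and 0 lower (7.78% of all genes were), leaving 24 short of the rule. They were Nid1, the basement membrane protein nidogen, with 690 CPM in CDDO+TPA against 197 CPM in TPA, Fbn1 (fibrillin), with 101 against 47.3 CPM, and the matricellular gene Ctgf, with 40.4 against 15.6 CPM. The ligands had a median log2 fold change of -0.29 for TPA over control, beside 0.00 for all genes, and of 0.37 for CDDO+TPA over TPA, beside 0.01 for all genes. In CDDO+TPA against control, 3 ligands were higher (11.1%, against 8.02% of all genes) and 4 lower (14.8%, against 3.37% of all). Col3a1, Col1a2 and Vcam1 were 6.95-fold, 2.44-fold and 2.29-fold lower than in control, and Tnc and Nid1 were 3.64-fold and 3.18-fold higher. The median for CDDO+TPA over control was -0.12, beside -0.02 for all genes.

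Of 50 further adhesion adaptors and kinases, 47 were measured; 5 were higher (10.6%, against 9.57% of all genes) and 4 lower (8.51%, against 5.91% of all) in TPA against control. In CDDO+TPA against TPA 3 were higher (6.38%, against 7.87% of all) and 1 lower (2.13%, against 7.78% of all). Parvg, the parvin of blood cells, had 8.11 CPM in the CDDO+TPA library, 42.8 CPM in the TPA library and 6.49 CPM in the control library. Like Fermt3 it was high in the TPA library alone, 6.60-fold above control (4.92 to 9.01). Fblim1, which links kindlin to filamin, was above control in both treated libraries, with 84.4, 76.2 and 21.1 CPM in the CDDO+TPA, TPA and control libraries. Dlc1, a regulatory protein of focal adhesions, had 133, 57.9 and 242 CPM and was lowest in TPA, 4.18-fold below control (3.77 to 4.64), and Flnc, a filamin, had 527, 445 and 927 CPM.

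None of the 17 measured inside-out activators and traffic genes, among them Rap1a, Rap1b and Arf6, was past the rule in any of the 3 comparisons. Of all 13100 measured genes, 25.9% were past it in at least 1. Among 17 lateral partners and hemidesmosome genes, all measured, 2 were higher (11.8%, against 9.57% of all genes) and 2 lower (11.8%, against 5.91% of all) in TPA against control. Lad1, an anchoring filament protein, had 3, 246 and 3 reads in the CDDO+TPA, TPA and control libraries, with the TPA library alone high, as for Itgb4. The plakin gene Dst, whose epithelial product attaches Itgb4 to keratin, had 919 CPM in the CDDO+TPA library, 697 CPM in the TPA library and 1395 CPM in the control library. Dst was 2.00-fold lower in TPA than in control (1.94 to 2.07), at the limit of the rule with a log2 fold change of -1.002. Its call was not followed under other scalings, and Itgb5, at -1.05, fell short under library totals or upper-quartile scaling. The count of 2 lower genes includes Dst. Plec, the other hemidesmosome plakin gene, had 679, 772 and 500 CPM, short of the rule. Col17a1, a hemidesmosome collagen gene, had 15, 19 and 5 reads and with Lad1 made up the 2 higher genes. In CDDO+TPA against TPA, 0 of the 17 were higher (7.87% of all genes were) and 1, Lad1, was lower (5.88%, against 7.78% of all).

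**Figure D4:**
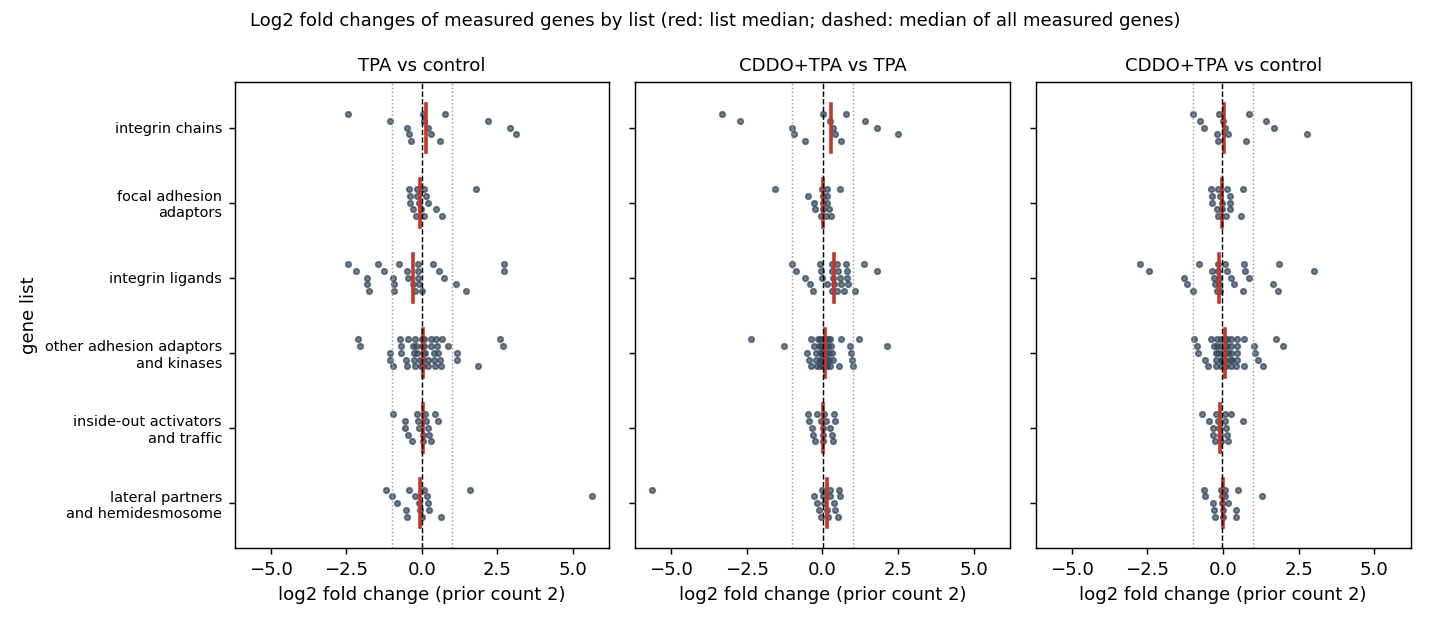
Log2 fold changes (prior count 2) of the measured genes in 6 lists for the 3 comparisons; points are genes, red lines list medians, dashed lines the median of all measured genes, and dotted lines a 2-fold difference. Integrin chains run from -2.44 to 3.11 and adaptors from -0.44 to 1.79 for TPA over control, and all 17 inside-out activators and traffic genes lie within the dotted lines.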

How the data were processed

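Total RNA of JB6 P+ cells was sequenced in 3 libraries. The deposited table holds raw read counts for each gene symbol beside its exonic length. Per the file headers, reads were counted by featureCounts 1.5.3 with a UCSC gene set for mm10, primary alignments only, and no strand option; HISAT2 and Picard are named in the submitters' processing notes. The column names mark duplicate removal, which, where done by position, caps the reads of a gene; Itgb1 reached 0.995 reads per exonic base. Libraries were scaled with edgeR 4.0.16 under R 4.3.3 by TMM (1.00, 1.02 and 0.978 for CDDO+TPA, TPA and control), and DESeq2 1.42.0 gave alternative size factors. A prior count of 2 was used for log2 fold changes; printed folds are ratios of CPM without it, with exact conditional binomial 95% intervals. Genes with 1 CPM in at least 1 library were compared. TPM was computed from counts and lengths, and shares of TPM have delta-method intervals. No p-value was computed, because each group has 1 library. The calling rule was tried on simulated counts with counting error alone and planted folds well past the rule in well-counted genes. That trial does not cover calls near a 2-fold difference, calls on few reads or the spread between cultures. The genes and lists were chosen with earlier results of these data known. By rule, members with at least 10 reads in a library could be named with their levels, with folds for those past the size rule or most abundant in their role; other folds were chosen after their values were seen. List genes past the rule with a mean of at least 10 CPM, at most 4 in each direction, could be named; Itga4 and other partner chains with few reads, overlapping genes, Plec, Col17a1, Rap1a, Rap1b and Arf6 were named after their values were seen. Ctgf was matched to the listed symbol Ccn2 through RefSeq synonyms. Values of some genes in the lists are not reported here.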

Additional observations from a re-analysis of the deposited data

How the results depend on the processing

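No paired analysis was possible because each group has 1 library and the labels carry no replicate numbers; for the same reason no library could be left out. Among the integrin and focal adhesion genes compared, no gene past the rule turned in sign under any setting tried. Near 0, library totals or upper-quartile factors turned the sign of Parva in TPA against control (-0.04, and 0.02 with either), of Itga3, Itgb1bp1 and Pxn in CDDO+TPA against TPA, and of Tns3 and Tln1 in CDDO+TPA against control. With library totals or upper-quartile factors, 1 gene (Itga1) in place of 2 was lower in TPA against control, since Itgb5 fell short. With a prior count of 0.5, 1 gene (Itga2b) in place of 0 was lower in CDDO+TPA against control, and with a prior count of 5 Itga2b was no longer past the rule in CDDO+TPA against TPA. Requiring a mean of 10 CPM leaves 25 genes: 2 were higher (Itga7 and Itgb7) and 1 lower (Itgb5) in TPA against control, and 1 higher (Itgb2) and 1 lower (Itga7) in CDDO+TPA against TPA, because Itgb4, Itga1, Fermt3, Itga2b and Itgae fall under the filter. Those genes rest on few reads. Shares over all genes under that filter are not given here. A fold of at least 1.5 in place of 2 gave 7 higher in TPA against control, 5 higher in CDDO+TPA against TPA, and 7 higher and 3 lower in CDDO+TPA against control. Without division by length, RGD receptor chains took 72.2% of alpha-chain reads in the control library in place of 71.0%; the other alpha-chain class shares stayed within their intervals. The same choice for beta chains, added after seeing the data, moved shares more: in the CDDO+TPA, TPA and control libraries Itgb7 took 28.5%, 23.6% and 4.54% of beta-chain reads, Itgb1 51.2%, 55.1% and 64.3%, and Itgb5 17.4%, 16.6% and 29.9%. DESeq2 size factors changed no call among the integrin and focal adhesion genes compared. Calls of genes in the other lists, Dst among them, were not followed under these settings. Over all measured genes in TPA against control, DESeq2 size factors gave 1269 higher in place of 1254, and 757 lower in place of 774. With no filter Itga9 (0, 7 and 2 reads in the CDDO+TPA, TPA and control libraries) was also lower in CDDO+TPA against TPA.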

Other observations

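In the GENCODE M21 annotation, which is on the same genome assembly but was not used for counting, exons of 13 of the 46 genes share bases with another gene. Exons of Itga10 share 34.5% of their bases with Gm42957 and those of Itga1 share 11.5% with Gm49395, both on the same strand. Vcl shares 39.9% of its exonic bases with Ap3m1 on the other strand, and Ap3m1 had 88.3 CPM in the CDDO+TPA library, 62.6 CPM in the TPA library and 97.8 CPM in the control library. The largest overlap was that of Ilk, which shares 81.6% with Taf10 and 17.1% with Rrp8 on the other strand. Taf10 had 57.9, 66.7 and 54.7 CPM in the CDDO+TPA, TPA and control libraries. Itgam shares 73.7% with Gm49368 on the same strand. Itgb4 shares 8.66% with B230344G16Rik, a noncoding gene on the other strand without counts here.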
